A study of Mus musculus with 7 samples.

Results

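RNA of immediate early genes was measured by sequencing in whole adrenal glands from the inbred mouse strain C57BL/6J. The genes were 10 members chosen by symbol, Fos, Fosb, Jun, Junb, Jund, Egr1, Atf3, Ier2, Dusp1 and Zfp36, and all 10 were found among the 35976 symbols of the deposited table. Each of the 7 libraries came from 1 pool of glands, with no treatment or engineered allele in the labels. The pools were the embryonic stage E18.5 with sex not determined and 40 glands, postnatal day 1 (P1) males with 16 glands and females with 22, 2-week males and females with 6 glands each, and 12-week males and females with 4 glands each. A pool averages over its animals and each group has 1 library, so no group has a replicate error. The tests below set age groups of 1 male and 1 female pool against the spread that is left among the 6 postnatal pools, and their p-values measure that spread only.

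Immediate early genes are switched on within minutes of a stimulus and need no new protein synthesis for it. Fos, Fosb, Jun, Junb and Jund encode subunits of AP-1, a dimer of leucine zipper proteins that binds DNA, and Fos family proteins bind DNA only with a partner such as a Jun protein. Egr1 is a zinc finger transcription factor, Atf3 is a leucine zipper factor of the ATF/CREB family, and Ier2 is a small nuclear protein of the early response. Dusp1 removes phosphate from MAP kinases, and Zfp36 (tristetraprolin) marks mRNAs with AU-rich elements for decay, so both damp the response that induces them. Serum response factor and CREB are well known activators of this class, and in adrenal cells the pituitary hormone ACTH, acting through cyclic AMP, induces several of its members.

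Promoter sequence was taken from RefSeq (GRCm38.p6), which gave the start region of 8 of the 10 members: Fos, Fosb, Jun, Junb, Jund, Atf3, Dusp1 and Zfp36. The stretches of 110 bases that end just before the annotated start are shown, 5′ to 3′ on the gene's strand, for the 3 members whose RNA rose from P1 to 2 weeks (Fos, Fosb and Junb), for Jun, whose RNA was highest at 12 weeks, and for Zfp36, whose window held a CArG box. Capitals mark the core of a cyclic AMP response element (TGACG), which CREB binds, the TATA box and the CArG box, the site of serum response factor.
Fos, chr12:85473780-85473889, plus strand: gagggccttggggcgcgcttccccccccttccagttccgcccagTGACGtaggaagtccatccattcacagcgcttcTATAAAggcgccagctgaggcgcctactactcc
Fosb, chr7:19310046-19310155, minus strand: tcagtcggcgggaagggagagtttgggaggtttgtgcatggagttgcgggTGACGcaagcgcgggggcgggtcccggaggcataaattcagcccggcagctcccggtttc
Junb, chr8:84978749-84978858, minus strand: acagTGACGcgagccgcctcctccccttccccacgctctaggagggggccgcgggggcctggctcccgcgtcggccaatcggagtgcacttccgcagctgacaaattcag
Jun, chr4:95052223-95052332, minus strand: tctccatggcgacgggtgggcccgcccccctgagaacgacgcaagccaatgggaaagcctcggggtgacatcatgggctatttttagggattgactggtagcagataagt
Zfp36, chr7:28379229-28379338, minus strand: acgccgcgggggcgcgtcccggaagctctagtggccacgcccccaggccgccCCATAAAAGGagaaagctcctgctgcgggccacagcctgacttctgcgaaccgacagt

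The motifs were searched on both strands in windows from 250 bases before to 50 bases after the start, in all 32851 RefSeq promoters. The start is the RefSeq one, which matched the start of the GENCODE vM21 gene model for Fos and Jun only. The Jund window (70697489 to 70697788) lay wholly before the GENCODE start (70698949). The windows of Zfp36, Atf3 and Dusp1 lay inside the GENCODE gene models. TGACG lay in 5 of the 8 member windows (Fos, Fosb, Junb, Atf3 and Dusp1) and in 20.8% of all windows. In Fos it began 129 and 66 bases before the start, in Fosb 60 and in Junb 106 bases before it. The full palindrome TGACGTCA, which holds TGACG on both strands, lay in Dusp1 alone of the 8, 143 to 136 bases before the start, and in 1.79% of all windows. The TATA box, searched as TATAAA, lay in Fos, 33 to 28 bases before the start, and in Junb just after the RefSeq start, and in 13.6% of all windows. The GENCODE model of Junb starts further downstream, at 84978718 on the minus strand, so the Junb match lies before that start. The CArG box, a run of CC, 6 bases of A or T and GG, lay in Zfp36, 58 to 49 bases before the start, and in 1.63% of all windows. The AP-1 site, searched only as TGACTCA, lay in none of the 8 member windows and in 5.20% of all windows. Other spellings of these motifs, and bases outside the windows, were not searched, so a motif not listed for a gene may still be present. These are matches of letters in a window and not measured sites.

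The libraries held 15184210 reads on genes (12-week males) to 23551289 (P1 males). The values are the deposited normalized counts, which are reads divided by 1 size factor per library, and intervals on a single value or ratio are exact 95% intervals for counting error only. All 8 cortex markers and all 8 chromaffin markers were detected in every library labelled adrenal gland. Xist stood at 8103 to 22167 in the female pools and at 3.56 to 22.1 in the male ones. The E18.5 pool held Xist at 9782 and the Y-linked Ddx3y at 1745 (2782 in P1 males), so its RNA came from both sexes. The library labelled P1 female also held RNA of 4 Y-linked genes, with a median level 21.0% of that in P1 males, against 0.0609% at 2 weeks and 0.0132% at 12 weeks. What became of the members' calls and of the fitted sex difference without that library is given below. For the other lists, counts of calls and some named genes are given without it.

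Fos, the main inducible partner of the Jun proteins, stood highest in both 2-week pools. The gene lies on chromosome 12 (85473890 to 85477273, plus strand, GRCm38, GENCODE vM21). Its normalized counts were 102.5 at E18.5, 157.9 and 199.8 in P1 males and females, 491.0 and 432.3 in 2-week males and females, and 99.3 and 63.4 in 12-week males and females. Both 2-week pools were above the other 5 libraries, as for 8.38% of all genes tested. Both 12-week pools were below the other 5, as for 23.1% of all genes tested. The 12-week male value [77.5 to 125.2] was close to that at E18.5 [85.1 to 122.4]. Fos rose from P1 to 2 weeks by 1.37 ± 0.279 on the log2 scale (SE, limma adjusted p = 0.0220), 3.11-fold between the male pools and 2.16-fold between the female pools. It then fell from 2 to 12 weeks by 2.52 ± 0.279 (adjusted p = 0.00332), and its 12-week level was below its P1 level, a log2 change of -1.15 ± 0.279 (adjusted p = 0.0177).

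Junb, a Jun family subunit that often weakens activation by Jun, showed the widest swing among the Jun genes. It lies on chromosome 8 (84974484 to 84978718, minus strand). The normalized counts of Junb were 131.1 at E18.5, 154.7 and 231.8 in P1 males and females, 1344 and 1348 in 2-week males and females, and 219.5 and 140.3 in 12-week males and females. The 2-week pools lay far above all others and were nearly equal to each other. Junb rose from P1 to 2 weeks by 2.82 ± 0.294 on the log2 scale (limma adjusted p = 0.00350), 8.69-fold in males [7.47 to 10.2] and 5.82-fold in females [5.03 to 6.75]. It fell by 2.93 ± 0.294 from 2 to 12 weeks (adjusted p = 0.00246), and its change from P1 to 12 weeks was -0.11 ± 0.294 (adjusted p = 0.788).

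**Figure D1:**
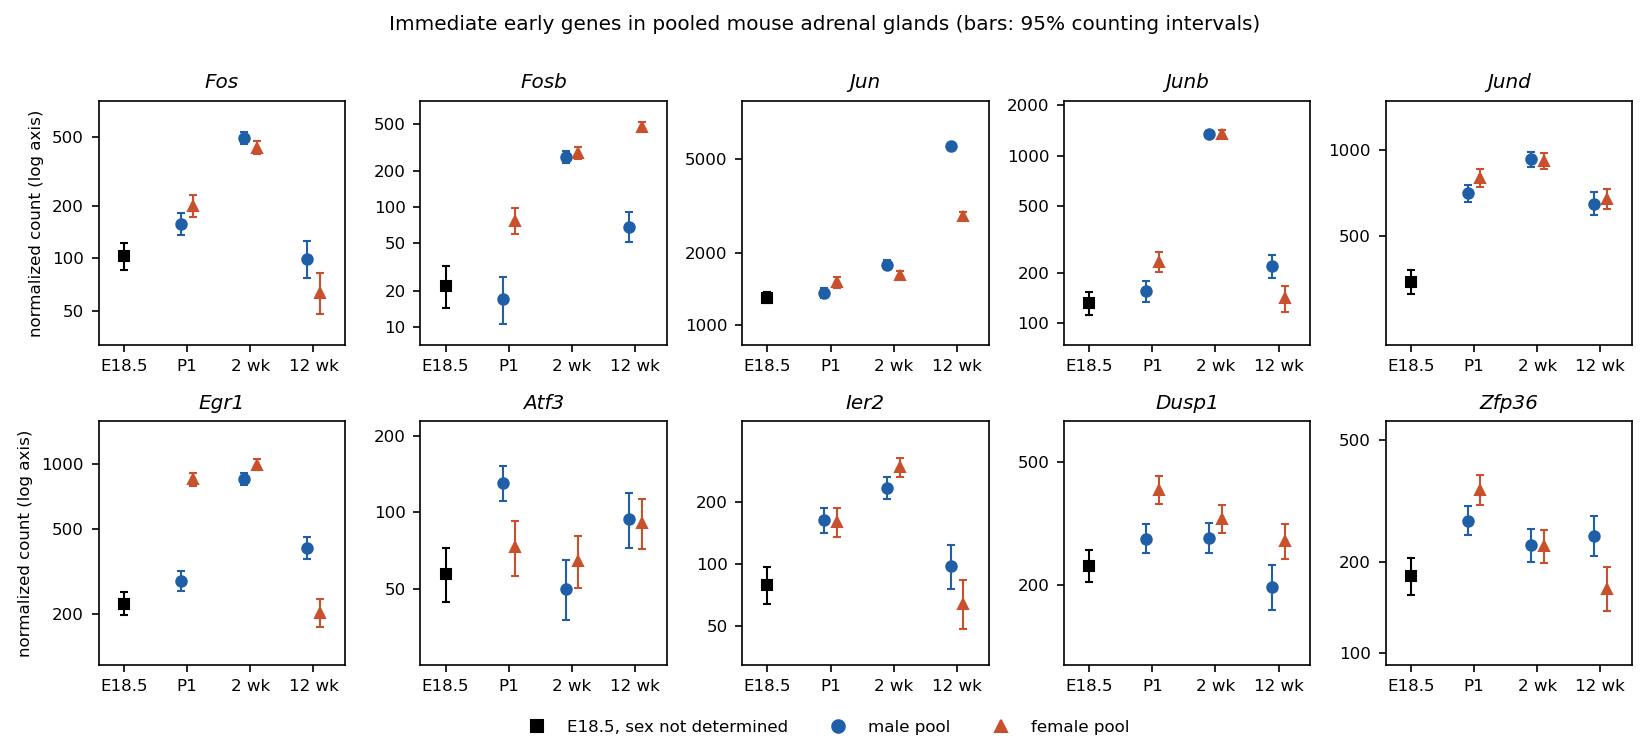
Normalized counts of the 10 genes (vertical log axis, one panel per gene) against age; each point is 1 pool, with E18.5 as squares, males as circles and females as triangles, and bars are 95% counting intervals. Fos and Junb peak in both 2-week pools, Jun is highest at 12 weeks, and Fosb at 12 weeks splits into 68.5 in males and 467.3 in females.

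Ier2 and Egr1 were also highest in both 2-week pools. Ier2 lies on chromosome 8 (84661331 to 84662852, minus strand). The normalized counts of Ier2 were 79.8 at E18.5, 163.7 and 160.1 in P1 males and females, 234.0 and 295.5 in 2-week males and females, and 97.9 and 64.5 in 12-week males and females. Ier2 fell by 1.71 ± 0.283 on the log2 scale from 2 to 12 weeks (limma adjusted p = 0.0121) and was lower at 12 weeks than at P1, with a log2 change of -1.02 ± 0.283 (adjusted p = 0.0289). Its P1 to 2 week change of 0.70 ± 0.283 did not pass the threshold (adjusted p = 0.147).

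Egr1 had normalized counts of 224.3 at E18.5, 287.2 and 845.5 in P1 males and females, 846.9 and 989.9 in 2-week males and females, and 405.5 and 203.6 in 12-week males and females. The library labelled P1 female was level with the 2-week male pool, whereas the P1 male pool was near the E18.5 value. No change of Egr1 passed the threshold: the log2 changes were 0.89 ± 0.522 from P1 to 2 weeks (limma adjusted p = 0.289), -1.67 ± 0.522 from 2 to 12 weeks (adjusted p = 0.0785) and -0.78 ± 0.522 from P1 to 12 weeks (adjusted p = 0.271). The call depended on single libraries and on the tool. Without the 12-week male pool all 3 changes passed (0.89, -2.61 and -1.72, with adjusted p = 0.0139, 2.9e-05 and 0.000662), without the 12-week female pool the first did (adjusted p = 0.0129), and in DESeq2 the 2 to 12 week change did (-1.52, adjusted p = 0.0207).

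Jund, the Jun family member that is usually present without a stimulus, moved least among the genes that peaked at 2 weeks. It lies on chromosome 8 (70698949 to 70700616, plus strand). The normalized counts of Jund were 346.2 at E18.5, 705.3 and 797.0 in P1 males and females, 926.9 and 912.2 in 2-week males and females, and 647.3 and 675.4 in 12-week males and females. The E18.5 pool stood apart as the lowest. The log2 changes of Jund were 0.29 ± 0.151 from P1 to 2 weeks (limma adjusted p = 0.232) and -0.48 ± 0.151 from 2 to 12 weeks (adjusted p = 0.0820), and the latter passed with libraries scaled to equal totals (-0.64, adjusted p = 0.0316).

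Jun, the strongest activator of its family and a target of JNK kinases, followed another course. It lies on chromosome 4 (95049034 to 95052222, minus strand). The normalized counts of Jun were 1301 at E18.5, 1359 and 1507 in P1 males and females, 1790 and 1614 in 2-week males and females, and 5654 and 2875 in 12-week males and females. Both 12-week pools were above the other 5 libraries, as for 20.2% of all genes tested, and the male one was 1.97-fold above the female one [1.87 to 2.07]. Jun rose from 2 to 12 weeks by 1.25 ± 0.264 on the log2 scale (limma adjusted p = 0.0264) and from P1 to 12 weeks by 1.49 ± 0.264 (adjusted p = 0.00562), while its change from P1 to 2 weeks was 0.25 ± 0.264 (adjusted p = 0.562). The rise over 2 to 12 weeks was 3.16-fold between the male pools and 1.78-fold between the female pools.

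Fosb, a Fos family subunit, had the widest range of the 10 genes, 27.2-fold from the lowest to the highest library. It lies on chromosome 7 (19302696 to 19310051, minus strand). The normalized counts of Fosb were 21.8 at E18.5, 17.2 and 77.3 in P1 males and females, 265.1 and 284.1 in 2-week males and females, and 68.5 and 467.3 in 12-week males and females. The 2-week pools were alike, but the 12-week pools lay on either side of them. Fosb rose from P1 to 2 weeks by 2.87 ± 0.587 on the log2 scale (limma adjusted p = 0.0225) and was higher at 12 weeks than at P1 by 2.26 ± 0.587 (adjusted p = 0.0230). The 2 to 12 week change of -0.61 ± 0.587 did not pass (adjusted p = 0.520), and the log2 change was -1.94 between the male pools and 0.72 between the female pools.

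Atf3, Dusp1 and Zfp36 varied least, and no age change of theirs passed the threshold. Atf3, which represses many of its targets, ranged from 49.8 (2-week males) to 130.1 (P1 males) and had log2 changes of -0.77 ± 0.353 from P1 to 2 weeks (limma adjusted p = 0.186) and 0.69 ± 0.353 from 2 to 12 weeks (adjusted p = 0.229). Dusp1 ranged from 197.1 (12-week males) to 406.2 (the library labelled P1 female), a 2.06-fold span. Zfp36 ranged from 162.9 (12-week females) to 344.4 (the library labelled P1 female), and both P1 pools were above the other 5, as for 16.5% of all genes tested. Neither negative regulator shared the 2-week peak of Fos and Junb: Dusp1 had 284.7 and 327.3 and Zfp36 had 225.9 and 225.0 in 2-week males and females. The P1 to 12 week changes were -0.53 for Dusp1 (adjusted p = 0.0660), which passed with libraries scaled to equal totals (-0.65, adjusted p = 0.0352), and -0.62 for Zfp36 (adjusted p = 0.101), which passed without the 12-week male pool (-0.99, adjusted p = 0.0159).

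Counted over the members, 3 of 10 rose from P1 to 2 weeks and 0 fell in limma, where 5.89% of all 16720 genes tested rose and 10.5% fell. In that interval 4 of 10 members had an unadjusted p under 0.05, as did 5415 of all 16720 genes. From 2 to 12 weeks 1 member rose and 3 fell, against 5.4% and 9.89% of all genes. Of all calls in that interval 35.3% were higher at 12 weeks, and 20.5% with libraries scaled to equal totals, which moved the median of all genes from -0.03 to -0.20. From P1 to 12 weeks 2 rose and 2 fell, against 17.6% and 23.5%, so the shares of that last comparison lay near the background. The median log2 change of the members was 0.50, -0.54 and -0.36 in the 3 comparisons, beside medians of 0.00, -0.03 and -0.03 over all genes. Leaving out 1 pool at a time moved the members' medians to between 0.0696 and 0.67, -0.97 and -0.32, and -0.59 and -0.17, and without the library labelled P1 female they were 0.67, -0.54 and -0.20. Both 2-week pools exceeded the other 5 libraries for 5 of the 10 members (Fos, Junb, Jund, Egr1 and Ier2), as they did for 8.38% of all genes. The first of these comparisons shares its 2-week libraries with the second and its P1 libraries with the last one.

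**Figure D2:**
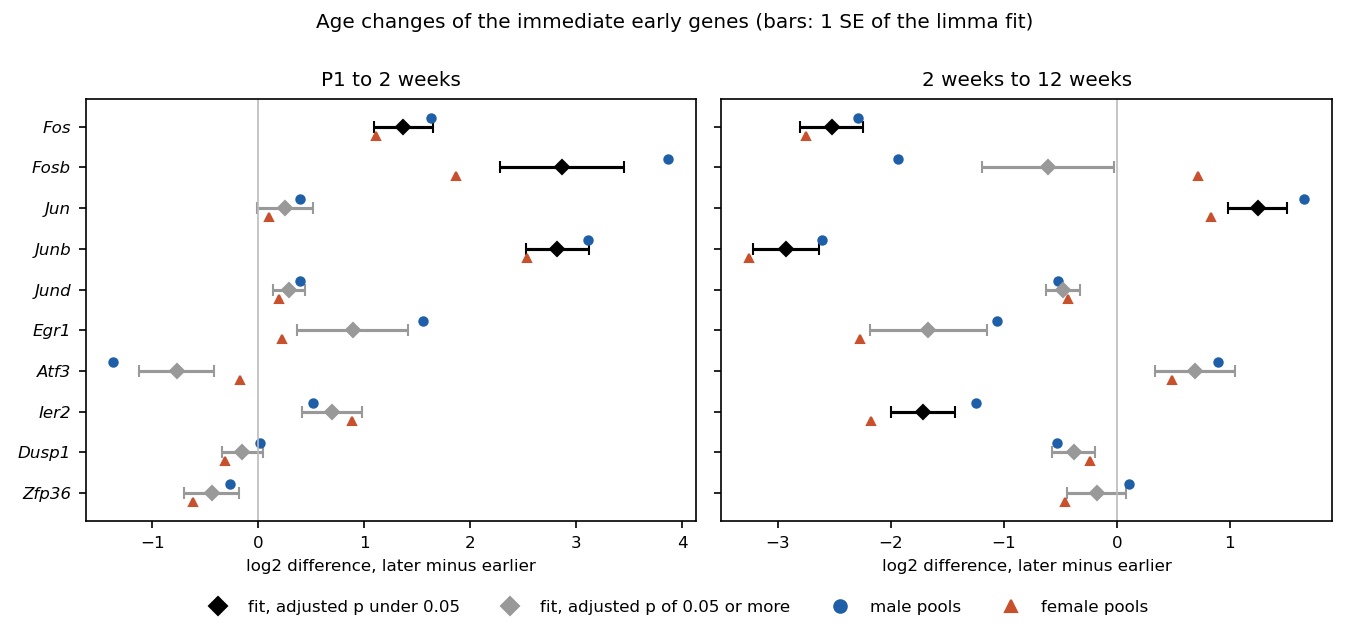
Log2 change of each gene between ages, one panel per comparison; diamonds are the fitted changes with bars of 1 SE (black where the adjusted p is under 0.05, grey elsewhere), circles the changes between male pools and triangles those between female pools. Fos and Junb rise and then fall in both sexes, whereas Fosb changes in opposite directions in males (-1.94) and females (0.72) from 2 to 12 weeks.

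Some of these calls rest on single libraries, and leaving one out leaves only 1 residual degree of freedom, with the lone pool of an age assumed to vary like the other ages. Without the library labelled P1 female, the P1 to 2 week changes were 1.74 for Fos (limma adjusted p = 0.0869), 3.21 for Fosb (adjusted p = 0.163) and 3.27 for Junb (adjusted p = 0.0519), all of the same sign and none past the threshold. All 3 calls of that interval were lost also without the P1 male pool (adjusted p = 0.178, 0.223 and 0.0822 for Fos, Fosb and Junb) and without the 2-week male pool (adjusted p = 0.205, 0.125 and 0.0567), and Fos lost its call without the 2-week female pool (adjusted p = 0.164). The fall of Junb from 2 to 12 weeks passed without each of the 6 pools in turn. Fos missed in that interval without the 2-week male (adjusted p = 0.0504) or female pool (adjusted p = 0.0524), and Ier2 and Jun missed without any one of the P1 or 2-week pools (adjusted p = 0.0640 to 0.145 for Ier2 and 0.0661 to 0.228 for Jun). From P1 to 12 weeks, Jun missed without P1 males (adjusted p = 0.0780), Fosb without P1 males (adjusted p = 0.209) or P1 females (adjusted p = 0.132), and Fos without P1 females (-0.78, adjusted p = 0.152) or 12-week females (-0.79, adjusted p = 0.0543). Ier2 held that call only without the 12-week males, with adjusted p = 0.0503 to 0.182 without each other pool and a change of -0.64 without the 12-week females. All 11 member calls passed also in edgeR and in DESeq2 with all 6 pools. All 11 missed when no minimum level was set for the genes tested (adjusted p = 0.0674 to 0.173), and limma without a trend in its variance lost 5 of them (adjusted p = 0.0520 to 0.0874): Fos and Fosb from P1 to 2 weeks, Jun from 2 to 12 weeks, and Fosb and Ier2 from P1 to 12 weeks.

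Per kilobase of exon (GENCODE vM21, merged exons of each gene), the makeup of the 5 AP-1 genes changed with age. Jun supplied 56.7% of their summed level at E18.5, 43.2% and 41.1% in P1 males and females, 28.7% and 27.1% in 2-week males and females, and 76.8% and 61.4% in 12-week males and females. Junb supplied 7.92% at E18.5, 6.82% and 8.77% at P1, 29.9% and 31.4% at 2 weeks, and 4.13% and 4.15% at 12 weeks, with males before females. At 2 weeks Jun, Junb and Jund thus stood at nearly equal levels per kilobase. At 12 weeks Jun was the highest of the 5, at 1773 in males and 901 in females, against 388 and 405 for Jund. Jund ranged from 16.8% (12-week males) to 42.9% (P1 males). Fos supplied 10.7% and 9.84% in 2-week males and females and 1.83% in each 12-week pool, and Fosb supplied at most 5.09%, in 12-week females. These shares carry no test, and each share falls where another rises.

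**Figure D3:**
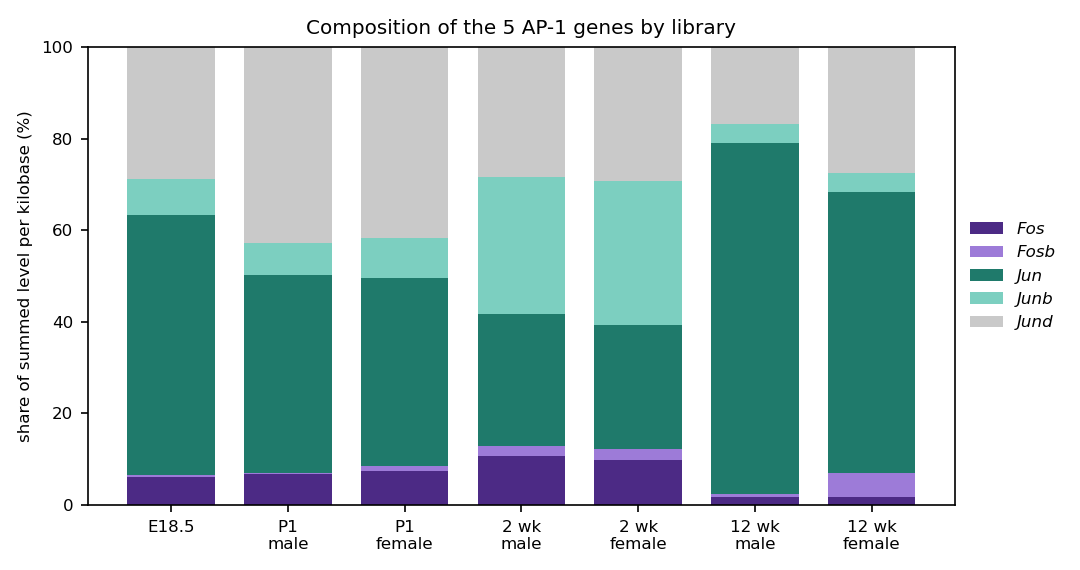
Share of each AP-1 gene in the summed normalized count per kilobase of Fos, Fosb, Jun, Junb and Jund (vertical axis, percent), with 1 stacked bar per library. The Junb segment is widest in the 2-week pools (29.9% and 31.4%) and the Jun segment in the 12-week pools (76.8% and 61.4%).

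Within the Fos family, the member that dominated was Fosl2, a Fos-related subunit outside the 10 genes. It held 79.0% (2-week males) to 93.8% (12-week females) of the summed level per kilobase of Fos, Fosb, Fosl1 and Fosl2, and Fos held 1.59% (12-week females) to 17.5% (2-week males). Fosl2 had normalized counts of 3121 at E18.5, 3380 and 3919 in P1 males and females, 9147 and 8662 in 2-week males and females, and 6759 and 15398 in 12-week males and females. It rose from P1 to 2 weeks by 1.29 on the log2 scale (limma adjusted p = 0.0318).

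Male and female pools were compared with age as a block over the 3 postnatal ages. None of the 10 genes passed the threshold in limma (adjusted p = 0.999 for each), in edgeR or in DESeq2, and 2 had an unadjusted p under 0.05. The background was 0.00598% of genes tested, which is 1 gene in limma, and 521 of all 16720 genes had an unadjusted p under 0.05. Fosb had the largest difference, a male minus female log2 value of -1.65 ± 0.480, made of -2.11 at P1, -0.10 at 2 weeks and -2.75 at 12 weeks. Without the library labelled P1 female it was -1.43 (adjusted p = 0.951), and none of the 10 genes passed. Dusp1 was lower in males at 3 of 3 ages, by 0.40 ± 0.157 in log2.

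The gap between the sexes was small at 2 weeks and wider at the other ages, in single pools with no test. The median size of the male to female log2 difference over the 10 genes came to 0.43 (P1), 0.17 (2 weeks) and 0.62 (12 weeks), beside 0.26, 0.15 and 0.26 over all genes. At 2 weeks the ratios ran from 0.774 (Atf3) to 1.14 (Fos), and 0 of 10 members differed by at least 2-fold, where 4.24% of all genes did. At P1 the 2 members past that fold were Fosb, 4.50-fold higher in the library labelled female [2.73 to 7.71], and Egr1, 2.94-fold higher there [2.59 to 3.35], beside 6.78% of all genes. Atf3 was 1.79-fold higher in the P1 male pool [1.33 to 2.42]. In these P1 pools the summed level of 8 chromaffin markers was 48003 in males and 93291 in females, and that of 8 skeletal muscle markers was 79893 and 148766. Other lists went the other way: 8 kidney markers summed to 10138 in P1 males and 2768 in P1 females (1498 at E18.5), and 8 exocrine pancreas markers to 6505 and 103.8 (29.4 at E18.5). The part of these cells, or of the Y-linked RNA in that library, in the differences at P1, or in the change from E18.5 to P1, was not tested.

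At 12 weeks Fosb was 6.82-fold higher in females [5.06 to 9.37], from 413 reads against 49 in males. It was the 1 member past 2-fold, beside 8.83% of all genes, and it went against most of the others, since 7 of the 10 genes had higher values in males. The median male minus female log2 value was 0.58 over the members and 0.02 over all genes. Egr1 was 1.99-fold higher in males [1.65 to 2.41], Fos 1.57-fold [1.09 to 2.27] and Junb 1.56-fold. Dusp1 was 1.41-fold higher in females [1.14 to 1.74], and the male to female ratios of Jund and Atf3 were 0.958 and 1.03. By a 2-fold rule applied after the values were seen, 5 of 30 other early response genes were higher in females and 1 in males. Nr4a1, an orphan nuclear receptor of the early response, had 1174 in males and 8493 in females (7.23-fold), and Sik1, a kinase that restrains CREB coactivators, was 5.59-fold, Nr4a2 5.41-fold, the kinase gene Plk3 3.57-fold and the kinase gene Pim1 2.47-fold higher in females. Of the other lists Fosl2 (2.28-fold) and Dusp9 passed the rule, Dusp9 with 0 in males and 4.53 in females. Arc, an activity-induced gene, was 3.18-fold higher in males. With 1 pool per sex at this age, sex and pool cannot be told apart.

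**Figure D4:**
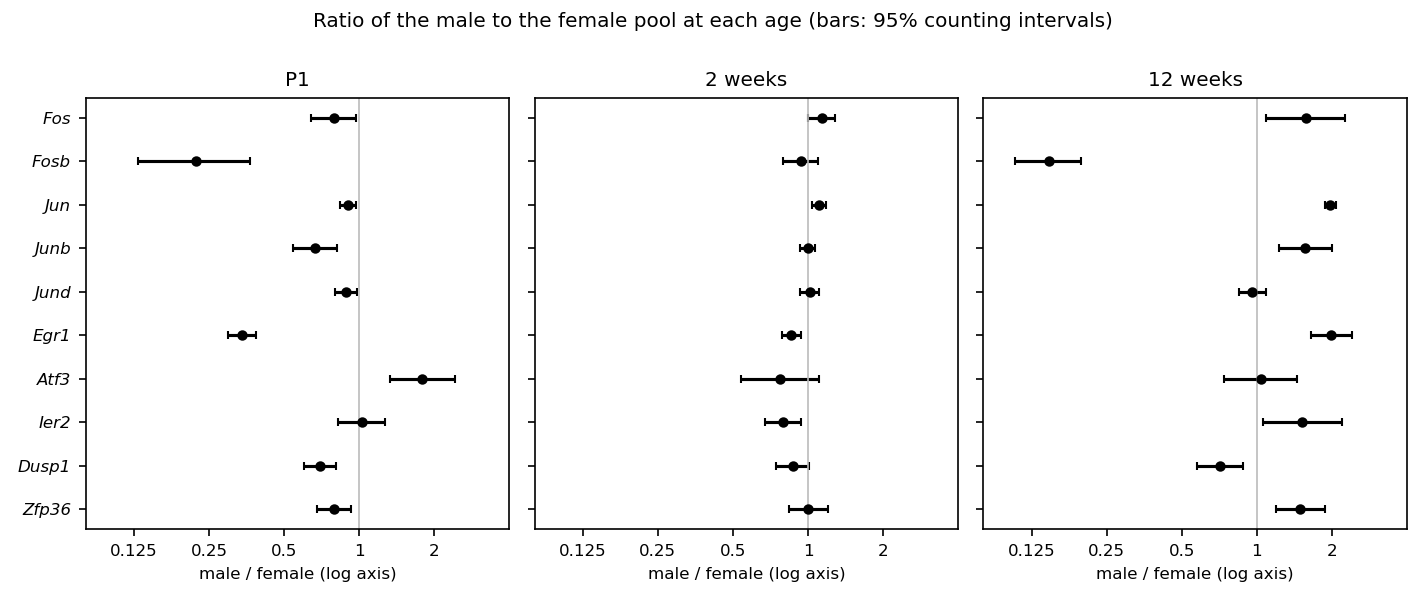
Ratio of the male to the female pool for each gene (horizontal log axis) at P1, 2 weeks and 12 weeks; points are ratios of normalized counts and bars are 95% counting intervals. At 2 weeks the ratios stay between 0.774 and 1.14, whereas Fosb falls to the far left at P1 and at 12 weeks.

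From E18.5 to P1 most members had higher values, again in single pools without a test. Relative to the E18.5 pool, 9 of 10 were higher in P1 males (median log2 change 0.48, beside 0.03 over all genes) and 10 of 10 in the library labelled P1 female (0.95, beside 0.04). The 3 members at least 2-fold higher in P1 males were Jund at 2.04-fold [1.81 to 2.30], Atf3 at 2.28-fold [1.70 to 3.07] and Ier2 at 2.05-fold [1.60 to 2.65]. In either direction 8.4% of all genes differed by that much, 819 of 16720 higher and 586 lower. In the library labelled P1 female the 3 members were Jund at 2.30-fold [2.04 to 2.60], Egr1 at 3.77-fold [3.27 to 4.35] and Fosb at 3.54-fold [2.23 to 5.78]. There 13.2% of all genes differed by that much, 1177 higher and 1023 lower. Jund was past 2-fold in both, and Ier2 lay at the limit in the latter, with a ratio of 2.01 that fell just short on the log2(value + 1) scale used for the counts. The E18.5 pool is shared by both comparisons.

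Other genes of the early response were counted in the same way. Of 30 tested, 6 rose and 2 fell from P1 to 2 weeks, 0 rose and 5 fell from 2 to 12 weeks, and 4 rose and 4 fell from P1 to 12 weeks, with medians of 0.15, -0.48 and -0.17. Set against all genes, where 5.89% rose and 10.5% fell, 5.4% rose and 9.89% fell, and 17.6% rose and 23.5% fell, the counts of the last comparison lay below the background. Both 2-week pools were highest for 10 of the 30, among them Btg2, Gadd45b, Gadd45g and Per1, and for 8.38% of all genes tested. Among called genes, the strongest rises to 2 weeks were those of the orphan receptors Nr4a1 (3.85 ± 0.676 on the log2 scale, limma adjusted p = 0.0144) and Nr4a2 (3.71 ± 0.519, adjusted p = 0.00749), and the falls were those of Socs3, an inhibitor of cytokine signalling (-1.53, adjusted p = 0.00913), and the zinc finger factor Klf6 (-0.56, adjusted p = 0.0477). From 2 to 12 weeks the lowest values among called genes were those of the stress-response gene Gadd45g (-2.01, adjusted p = 0.0197) and the antiproliferative gene Btg2 (-1.20, adjusted p = 0.0144). Egr2, a relative of Egr1, stayed between 19.2 and 65.1 normalized counts, and Klf4 between 190.1 and 610.4, and no age change of either passed the threshold. From P1 to 12 weeks Nr4a2 and Nr4a1 were highest among called genes (3.19 and 2.45, adjusted p = 0.00410 and 0.0280) and Socs3 and the survival gene Ier3 lowest (-1.56 and -1.06, adjusted p = 0.00291 and 0.0169).

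Upstream regulators and related lists are set beside all genes. From P1 to 2 weeks 5.89% of all genes rose and 10.5% fell, and from 2 to 12 weeks 5.4% rose and 9.89% fell. From P1 to 12 weeks 17.6% rose and 23.5% fell. Of 15 upstream regulators 1 rose from P1 to 2 weeks and 1 from 2 to 12 weeks, and both times it was Crem, a cyclic AMP responsive factor of the CREB family (1.34 ± 0.169 and 0.91 ± 0.169 in log2, limma adjusted p = 0.00569 and 0.0174). Srf, which encodes serum response factor, had 827.3 and 818.7 normalized counts at 2 weeks against 466.3 to 733.1 elsewhere, and its P1 to 2 week change of 0.32 did not pass (adjusted p = 0.248). Of 9 MAP kinase phosphatases, Dusp4 rose to 2 weeks by 1.19 (adjusted p = 0.0122) and fell by 1.23 to 12 weeks (adjusted p = 0.0108), and Dusp16 fell by 0.57 to 2 weeks (adjusted p = 0.0444). From 2 to 12 weeks the median log2 change of these 9 phosphatases was -0.50, where the members had -0.54 and all genes -0.03. In that interval 7 of the 9 had an unadjusted p under 0.05 in limma, as did 5434 of all 16720 genes. Of the 9 phosphatases, 1 was called in limma, 1 in edgeR and 3 in DESeq2. From P1 to 12 weeks Crem was higher by 2.25 (adjusted p = 0.000276) and the kinase gene Rps6ka1 and the ETS factor gene Elk3 were lower by 1.13 and 0.62 (adjusted p = 0.00371 and 0.0144), and Dusp6 was higher by 0.72 (adjusted p = 0.0223) and Dusp9 and Dusp7 lower (-4.92 and -0.92, adjusted p = 0.00488 and 0.0225). Of 7 tested genes of the Zfp36 family and its decay partners, none passed in limma, edgeR or DESeq2 from P1 to 2 weeks or from 2 to 12 weeks. In limma 0 and 2 of the 7 had an unadjusted p under 0.05 in these intervals, beside 5415 and 5434 of all 16720 genes. Zfp36l2, an mRNA decay factor, was lower at 12 weeks than at P1 by 0.91 (limma adjusted p = 0.0118). Zfp36l1 ranged from 2458 to 4426 normalized counts.

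Among other AP-1 subunits, Fosl2 rose from P1 to 2 weeks, and the lowest values among called genes were those of Batf and Maf, which fell by 2.80 and 1.54 in log2 (limma adjusted p = 0.0118 and 0.00800). Batf was low throughout, with 40.1 and 37.5 normalized counts in P1 males and females and 6.23 and 3.53 in the 2-week ones. Batf is best known from lymphoid cells. From 2 to 12 weeks none of the 12 subunits tested passed in limma, edgeR or DESeq2. In limma 2 of the 12 had an unadjusted p under 0.05, beside 5434 of all 16720 genes. Heat shock genes encode chaperones that are induced by stress. Both 2-week pools were highest for 1 of 10 (Hspa8), near the 8.38% of all genes tested. From P1 to 2 weeks 2 rose and 1 fell, from 2 to 12 weeks 3 rose, and from P1 to 12 weeks 5 of 10 rose, against 5.89%, 5.4% and 17.6% of all genes that rose and 10.5% that fell in the first interval. Hspa1a and Hspa1b, near-identical copies whose reads may be split between them, rose to 2 weeks (by 1.48 for Hspa1a, adjusted p = 0.00993, and adjusted p = 0.0199 for Hspa1b), and Hspb1 fell by 1.24 (adjusted p = 0.00658) and then rose by 1.32 to 12 weeks (adjusted p = 0.00500). Hsph1 rose by 1.30 from 2 to 12 weeks (adjusted p = 0.0192).

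Many of these calls, too, were lost without the library labelled P1 female. From 2 to 12 weeks the fitted changes do not draw on that library and stayed the same, such as -2.01 for Gadd45g. Only their error and adjusted p changed. From P1 to 2 weeks few genes of any kind were called without that library. Without it, the 6 lists outside the members kept 0 of 18 limma calls from P1 to 2 weeks, 3 of 10 from 2 to 12 weeks and 12 of 23 from P1 to 12 weeks, all with the sign they had before. From P1 to 2 weeks the values without it were 4.03 for Nr4a1 (adjusted p = 0.157), 3.99 for Nr4a2 (adjusted p = 0.109), -1.58 for Socs3 (adjusted p = 0.106), 1.15 for Crem (adjusted p = 0.0696), 1.12 for Fosl2 (adjusted p = 0.250) and -2.67 for Batf (adjusted p = 0.0998). Crem held its later calls (adjusted p = 0.0448 from 2 to 12 weeks and 0.0172 from P1 to 12 weeks), as did Hspb1 and Hsph1 from 2 to 12 weeks (adjusted p = 0.0372 and 0.0307), whereas Gadd45g, Btg2 and Dusp4 missed there (adjusted p = 0.0721, 0.0581 and 0.0515). All 5 heat shock calls from P1 to 12 weeks held. Nr4a1, Nr4a2 and Fosl2 missed in that interval, with log2 changes of 2.63, 3.48 and 1.32. So did Ier3, Elk3, Dusp6, Dusp7 and Zfp36l2, with -1.30, -0.65, 0.47, -0.67 and -0.62.

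Over the 7 libraries, the 5 members highest in both 2-week pools had the profiles most like the mean of the others. The Pearson r of log2 values with the mean of the other 9 members was 0.88 for Jund, 0.85 for Junb, 0.84 for Egr1, 0.75 for Ier2 and 0.74 for Fos, against -0.12 for Jun and -0.43 for Atf3. Between pairs of these 5, r ran from 0.65 (Fos and Jund) and 0.69 (Junb and Jund) to 0.91 (Fos and Junb) and 0.96 (Fos and Ier2). Among 12246 other genes with a mean of at least 100, those most like the mean profile of the 10 were Acadl (r = 0.99), Crat, Cplx2, Cby1, Ltbp3, Hr, Snx21 and Malt1 (0.97). Acadl and Crat encode enzymes of fatty acid and carnitine metabolism, and Cplx2 encodes complexin 2, a regulator of vesicle release. Acadl had 7876 and 9194 normalized counts in 2-week males and females against 1981 to 4842 in the other libraries. These are descriptions over 7 points that share their libraries, size factors and cell makeup.

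Marker genes of the adrenal cortex and of other cells also moved with age. The 8 cortex markers summed to 540239 at E18.5 and to 377955 and 249660 in P1 males and females. With males before females, their sums were 512277 and 516448 at 2 weeks and 842122 and 1120906 at 12 weeks. In pooled tissue, fewer cells of a type and less RNA per cell cannot be told apart. The summed normalized counts of 8 adipocyte markers were 561 to 1017 at E18.5 and P1, where Cfd and Lep were at 0 in at least 1 library, then 32407 and 35141 in the male and female 2-week pools and 27127 and 23287 in the 12-week ones. The 8 chromaffin markers summed to 107829 to 125652 at 2 weeks and 42040 to 99848 elsewhere. Of these 8, 2 were highest in both 2-week pools, as were 8.38% of all genes tested. The 8 macrophage markers were lowest at 2 weeks (3331 and 3584, against 6299 to 9484), and endothelial markers ranged from 19460 to 24690. Markers of liver, a neighbouring organ, summed to 262723 to 380260 at E18.5 and P1, 13123 and 34280 at 2 weeks and 432 to 454 at 12 weeks, and fibroblast markers to 138099 to 194042, 47996 to 51661 and 17042 to 19616 at these stages. Skeletal muscle markers summed to 191 and 8337 in male and female 2-week pools, and neutrophil markers to 32.0 and 2078. The part of any of these cells in the age changes was not tested.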

How the data were processed

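RNA sequencing of 7 pooled adrenal libraries was analysed from 1 deposited table of normalized signal per gene symbol. The submitters' processing notes name CASAVA 1.8.2, HISAT2 2.1.0, HTSeq 0.9.1, DESeq2 2.11.40.6 and mm10. The annotation and the strand setting of the counting are not given in the sources used here. The deposited signal values turned out to be read counts over a size factor of each library. All came back as whole reads to within 0.00046 reads, which gave the total counts per library and the counting intervals.

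Values were tested as log2(normalized count + 1), where fold changes of low genes are understated, in genes with a mean of at least 10 (16720), with limma 3.58.1 (lmFit and eBayes with a trend, R 4.3.3) on the 6 postnatal libraries. Age changes had sex as a block and the sex difference had age as a block, tests were two-sided, and Benjamini-Hochberg adjusted p under 0.05 over all genes was called. The E18.5 pool and each sex within an age have 1 library, so they carry values and no test. edgeR 4.0.16 and DESeq2 1.42.0 on the recovered counts, other scalings, filters and pseudocounts, and leaving out each pool were the alternatives. The limma step was tested on simulated data.

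The members and gene lists were chosen with earlier results of these data known. Named were all members, Nr4a1, Egr2, Fosl2, Srf, Klf4 and Zfp36l1, the 2 highest and 2 lowest called genes of each list, and the 8 genes most like the mean profile of the members by Pearson r. Sik1, Plk3, Pim1, Dusp9, Arc and other genes named for the 12-week gap or the 2-week peak were chosen after their values were seen. Of 32 other early response genes, 31 were in the table. Labels do not say whether pools came from separate litters. One gene of these lists is not reported here.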

Additional observations from a re-analysis of the deposited data

Results flagged for a closer look

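Fosb changed in opposite directions in the sexes from 2 to 12 weeks. The log2 change was -1.94 between the male pools and 0.72 between the female pools, a female minus male value of 2.65. This difference was not tested, since each sex has 1 pool per age. The 12-week female pool held 413 Fosb reads and the 12-week male pool 49.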

How the results depend on the processing

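Across 15 alternatives for each of 40 fitted changes (10 members in 4 comparisons), 521 values kept their direction and side of the threshold, 46 lost a call, 9 gained one and 24 changed sign. All sign changes were of values that passed no threshold and came from leaving out 1 pool. The cause of the differences below was not tested, except that each left-out pool removes 1 of 2 libraries of an age.

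With no filter on low genes, the P1 to 2 week comparison had 0 members higher and 0 genes called in all (6431 with an unadjusted p under 0.05), the 2 to 12 week one 0 members higher, 0 lower and 0 genes (6036 unadjusted), the P1 to 12 week one 0 members higher and 0 lower, and the sex difference 0 genes (783 unadjusted). With eBayes without a trend, the P1 to 2 week comparison had 1 member higher and 1672 genes, the 2 to 12 week one 0 members higher and 1661 genes, the P1 to 12 week one 1 member higher and 1 lower, and the sex difference 0 genes (638 unadjusted). The sex difference had 0 genes in edgeR (667 unadjusted) and 9 in DESeq2, against 1 in limma.

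Leaving out 1 pool at a time, members higher from P1 to 2 weeks numbered 0 to 5 (3 with all pools) and genes called 2 to 4461, from 2 to 12 weeks members higher 0 to 1, members lower 1 to 4 and genes 421 to 3035, from P1 to 12 weeks members higher 0 to 2, members lower 0 to 4 and genes 3207 to 6271, and for sex 0 to 51 genes. The counts of 2 and 28 genes from P1 to 2 weeks came without the P1 male and the P1 female library. Over the same settings the log2 change from P1 to 2 weeks ran from -0.11 to 0.60 for Jun, -0.0766 to 1.86 for Egr1 and -0.30 to 0.0035 for Dusp1, and from 2 to 12 weeks from -1.78 to 0.55 for Fosb and -0.55 to 0.19 for Zfp36. From P1 to 12 weeks it ran from -0.57 to 0.41 for Atf3, -0.58 to 0.36 for Junb and -1.74 to 0.19 for Egr1. The male minus female value ran from -0.89 to 0.38 for Egr1, -0.16 to 0.44 for Atf3, -0.0769 to 0.41 for Fos, -0.29 to 0.32 for Junb, -0.15 to 0.31 for Ier2 and -0.17 to 0.29 for Zfp36.

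Counts at a fold limit moved with the limit. At 1.5-fold, 5 members and 3663 genes differed between E18.5 and P1 males, 8 members and 5071 genes between E18.5 and P1 females, 3206 genes between the sexes at P1, 1684 at 2 weeks, and 6 members and 3746 genes at 12 weeks. At 4-fold the counts were 0 members and 280 genes, 0 members and 400 genes, 1 member and 209 genes, 185 genes, and 276 genes. With TMM scaling 1 member passed 2-fold from E18.5 to P1 males and 2 between the sexes at 12 weeks, with equal totals 3 passed at 12 weeks, and with a pseudocount of 5 the genes at 2 weeks numbered 455. Depth limits Fosb most, with 21 reads in P1 males.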
